A study of Mus musculus with 2 samples.

Results

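The miRNA genes described here are known from blood cells and were followed in the newborn mouse stomach: Mir142, Mir223, Mir146, Mir146b, Mir155 and Mir150 for leukocytes, and Mir144 and Mir451a for the erythroid lineage. They were picked by gene symbol, so these are 8 of the 1973 miRNA genes counted. Small RNA below 30 nt was sequenced from whole stomach tissue of B6NCrl mice on postnatal day 0, with 1 library from each of 2 pups of the same dam, each library being 1 stomach. Both libraries carry the same donor label, no treatment is named, and sex was not recorded. The libraries form 1 group, so there is no contrast between conditions, and every spread given is that between 2 littermates (SD, n = 2). The tables have a row for Mir142b, which lies on the minus strand over Mir142. The reads of that row were on the plus strand, and are called Mir142 here.

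miRNAs are cut from hairpin transcripts and guide Argonaute proteins to messenger RNAs through their seed, bases 2 to 8 of the mature strand. miR-142 is made across the blood lineages, miR-223 mainly in granulocytes and monocytes, and miR-150 in mature lymphocytes. miR-155 and miR-146a are induced when leukocytes are activated, and miR-146a restrains the NF-kB pathway that induces it. miR-144 and miR-451a are cut from a shared erythroid transcript that the factor GATA1 switches on. miR-451a is matured by the slicing activity of Ago2 and not by Dicer.

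Of the 8 genes, 7 matched a hairpin entry in the RefSeq sequences (GRCm38.p6), and Mir150 is given by name. The mature strands below, with the seed in capitals, are shown because seed and strand decide which miRNA a count stands for. The counts are per gene and do not say which arm of a hairpin was read.
miR-223-3p: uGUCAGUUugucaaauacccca
miR-142a-3p: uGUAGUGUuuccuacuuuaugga
miR-142a-5p: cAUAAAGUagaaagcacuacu
miR-142b: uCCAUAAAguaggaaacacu
miR-146a-5p: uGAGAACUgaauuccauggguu
miR-146b-5p: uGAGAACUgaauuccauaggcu
miR-155-5p: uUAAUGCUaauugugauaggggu
miR-144-3p: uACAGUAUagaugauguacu
miR-451a: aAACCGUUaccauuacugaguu

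The 7 members with a hairpin entry did not form a seed family. Their 14 mature entries in RefSeq, miR-142b included and Mir150 left out, had 13 distinct seeds. The 1 seed that recurred, GAGAACU, was that of miR-146a-5p and miR-146b-5p. For no other of these 14 strands did another mature mouse miRNA in RefSeq carry the same seed. Seeds of Mir150 were not examined. miR-146a-5p and miR-146b-5p are identical over their first 17 bases and differ by G18A and U21C, positions counted from the 5′ end, with the base of miR-146a-5p first. This was also the longest stretch that any of the 14 strands shared with a hairpin at another locus, the next being 13 nt (miR-142a-5p).

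Reads assigned by this rule summed to 4465475 in pup 1 and 3456328 in pup 2, and levels are counts per 1000000 of these sums (CPM). Of the 1973 genes, 306 (15.5%) had at least 10 counts in each library, the minimum for detection. Markers of the labelled tissue were all detected. Smooth muscle genes (Mir143, Mir145a) held 24.7% ± 1.21 of the counts, squamous epithelial genes (Mir203, Mir205) 11.2% ± 0.330, glandular epithelial genes (Mir192, Mir194-1, Mir194-2, Mir215) 0.792% ± 0.0330 and the endocrine gene Mir375 0.741% ± 0.0372. Of the 4 glandular genes, 2 share a stretch of 20 nt with another hairpin. How many reads they lost to mapping in several places was not tested. Of neighbouring organs, the hepatocyte gene Mir122 held 0.0230% ± 0.00352, and 0 of 3 pancreatic acinar genes were detected. Reads were not tagged by molecule as far as the labels say, so intervals and floors cover counting error only.

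The 8 member genes were a minor part of the stomach profile, and the leukocyte members far outweighed the erythroid members in counts. The 6 leukocyte genes summed to 4912 counts in pup 1, or 0.110% (exact binomial 95% interval 0.107% to 0.113%), and to 3912 counts in pup 2, or 0.113% (0.110% to 0.117%). The 2 erythroid genes summed to 177 and 120 counts, or 0.00396% (0.00340% to 0.00459%) and 0.00347% (0.00288% to 0.00415%). The leukocyte sum exceeded the erythroid sum 27.8-fold in pup 1 (23.9 to 32.4) and 32.6-fold in pup 2 (27.2 to 39.4), a log2 ratio of 4.91 ± 0.16. This ratio is taken within a library and does not depend on scaling between libraries, but an exact sign-flip test on 2 pups cannot give a p under 0.5. In whole tissue, fewer cells of a type and less RNA per cell cannot be told apart.

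**Figure D1:**
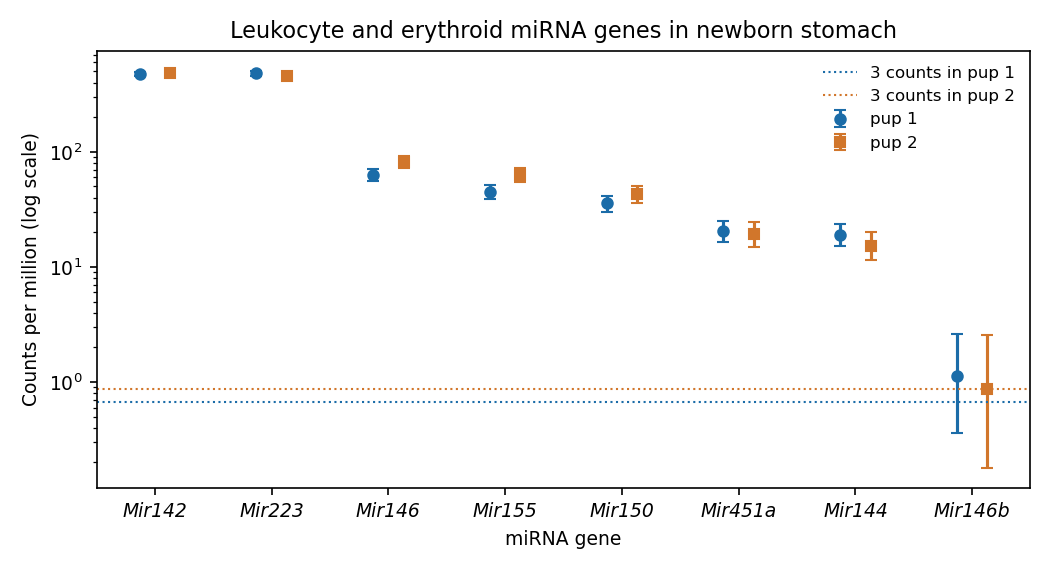
Level of each gene in each pup, in CPM on a log axis, with bars for exact 95% counting intervals and dotted lines at the level of 3 counts. Mir142 and Mir223 lie together at the top, Mir146, Mir155 and Mir150 form a middle group, and Mir146b, at 5 and 3 counts, lies at the floor.

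Mir142, the marker shared by leukocytes at large, had 2120 counts in pup 1 and 1673 in pup 2, which is 475 CPM (exact 95% interval 455 to 495) and 484 CPM (461 to 508). In CPM, both pups were thus at the same level within counting error. Mir142 lies on chromosome 11 at 87756864 to 87756927 (GRCm38, plus strand), in an intron of its host RNA Mir142hg. All its 64 bases lie inside the Mir142b hairpin of the minus strand, and the site of miR-142a-3p covers all 20 bases of the miR-142b site on the other strand. Strand therefore separates these miRNAs, which are shown above. Reads in the orientation of miR-142b numbered 0 in either pup, which allows up to 0.672 CPM in pup 1 and 0.868 CPM in pup 2. At the other 7 genes the reverse held, with 0 reads on the opposite strand in both pups.

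Mir223, the gene of granulocytes and monocytes, had 2146 counts in pup 1 and 1586 in pup 2, or 481 CPM (460 to 501) and 459 CPM (437 to 482). These intervals overlap. It lies on chromosome X at 96242817 to 96242926 on the plus strand and overlaps an exon of the RNA gene F630028O10Rik. Mir142 and Mir223 could not be ordered: Mir142 over Mir223 was 0.988 (0.930 to 1.05) in pup 1 and 1.05 (0.984 to 1.13) in pup 2, a log2 ratio of 0.03 ± 0.07. Together these genes supplied 86.8% (85.9% to 87.8%) of the leukocyte counts in pup 1 and 83.3% (82.1% to 84.5%) in pup 2.

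Among the members, the genes of activated cells (Mir146, Mir155) and of lymphocytes (Mir150) stood well below. Mir342 and Mir181c, known from lymphocytes but also made in other tissues, exceeded every member and are given below. Mir146, which encodes miR-146a, had 281 and 284 counts, or 62.9 CPM (55.8 to 70.7) in pup 1 and 82.2 CPM (72.9 to 92.3) in pup 2, so pup 2 lay above pup 1 with no overlap of counting intervals. It lies on chromosome 11 at 43374397 to 43374461 (minus strand), with no enclosing gene. Mir155 had 201 and 218 counts, or 45.0 CPM (39.0 to 51.7) and 63.1 CPM (55.0 to 72.0), again with pup 2 above and no overlap. Both gaps hold for total counts. With the TMM scaling used below, the log2 ratio of pup 1 over pup 2 shrank from -0.38 to -0.28 for Mir146. For Mir155 it shrank from -0.49 to -0.38. It lies on chromosome 16 at 84714140 to 84714204 on the plus strand and overlaps an exon of its host RNA Mir155hg. Mir150, on chromosome 7 at 45121757 to 45121821 (plus strand) with no enclosing gene, had 159 and 148 counts, or 35.6 CPM (30.3 to 41.6) and 42.8 CPM (36.2 to 50.3), and here the intervals overlapped. Mir146 exceeded Mir155 by a log2 ratio of 0.43 ± 0.07, and Mir155 exceeded Mir150 by 0.45 ± 0.16, with counting intervals of the fold above 1 in each pup for both pairs.

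Mir146b was the 1 member below the detection minimum. It lies on chromosome 19 at 46342762 to 46342870 (plus strand), in an intron of the protein-coding gene Mfsd13a. It had 5 counts in pup 1 and 3 in pup 2, or 1.12 CPM (0.364 to 2.61) and 0.868 CPM (0.179 to 2.54). Mir146 exceeded it 56.2-fold (23.8 to 174) in pup 1 and 94.7-fold (32.1 to 462) in pup 2, although miR-146a-5p and miR-146b-5p share their seed. Both hairpins hold an identical run of 20 nt or more. Reads that map to several places name no gene in these tables, so how many reads either gene lost that way was not tested.

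**Figure D2:**
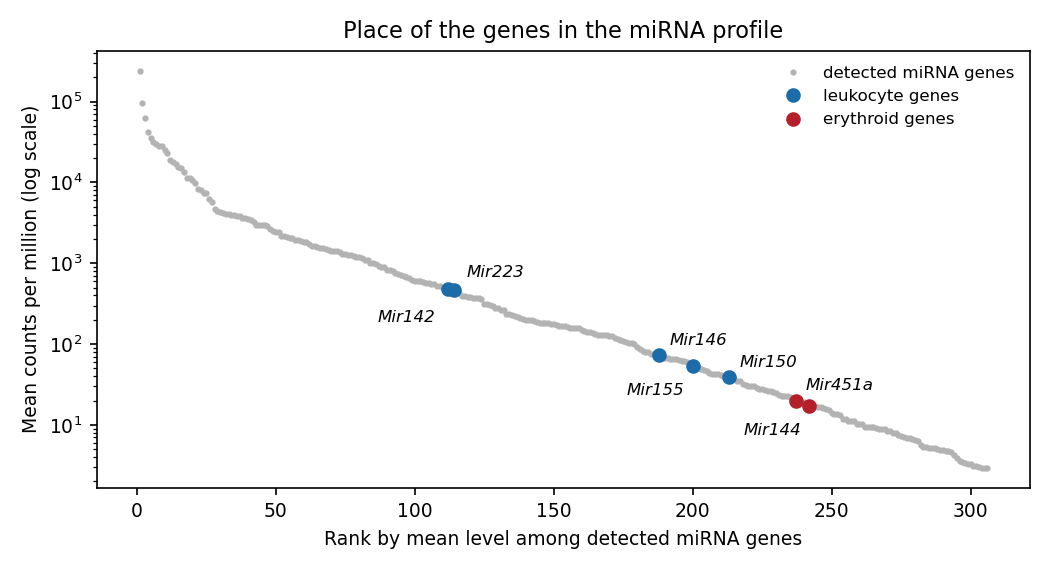
Mean level of the 306 detected miRNA genes against their rank, CPM on a log axis, with the leukocyte genes in blue and the erythroid genes in red. Mir142 and Mir223 rank 112 and 114, while the other detected members rank from 188 (Mir146) to 242 (Mir144).

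The erythroid pair came next in order. Mir451a had 92 counts in pup 1 and 67 in pup 2, or 20.6 CPM (16.6 to 25.3) and 19.4 CPM (15.0 to 24.6), and Mir144 had 85 and 53 counts, or 19.0 CPM (15.2 to 23.5) and 15.3 CPM (11.5 to 20.1). For either gene the pups overlapped. Both hairpins lie on the plus strand of chromosome 11, Mir144 at 78073005 to 78073070 and Mir451a at 78073170 to 78073241, with 99 bases between them and no enclosing gene. Mir451a over Mir144 was 1.08 (0.797 to 1.47) in pup 1 and 1.26 (0.869 to 1.85) in pup 2. Its log2 ratio of 0.23 ± 0.16 exceeded the SD, but the counting interval included 1 in each pup, so the order of this pair was not detectable at this depth. For 27 of the 28 pairs of members the mean log2 ratio exceeded the SD between pups, that of Mir451a and Mir144 included. The exception was Mir142 against Mir223. With 2 pups this criterion is weak and does not by itself order a pair.

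The hairpin of Mir451a is shown with the mature strand in capitals, because its layout differs from that of the other members with a hairpin entry.
Mir451a hairpin: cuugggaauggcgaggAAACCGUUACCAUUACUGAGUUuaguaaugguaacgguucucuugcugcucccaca
In the minimum free energy fold the apical loop took bases 35 to 38 of 72, and miR-451a ran from base 17 to base 38, through the whole loop. Of the 14 mature strands examined it was the 1 that spanned a loop. Among all mature mouse miRNAs that RefSeq places in a hairpin, 11 of 1635 did so (0.673%). miR-451a also had the longest match to the opposite strand of its own hairpin, 16 of its 22 bases, against 8 to 11 for the other 13 strands. The opposite strand holds the annotated gene Mir451b, which has no row here. In the row of Mir451a, 0 reads were on the opposite strand in either pup.

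**Figure D3:**
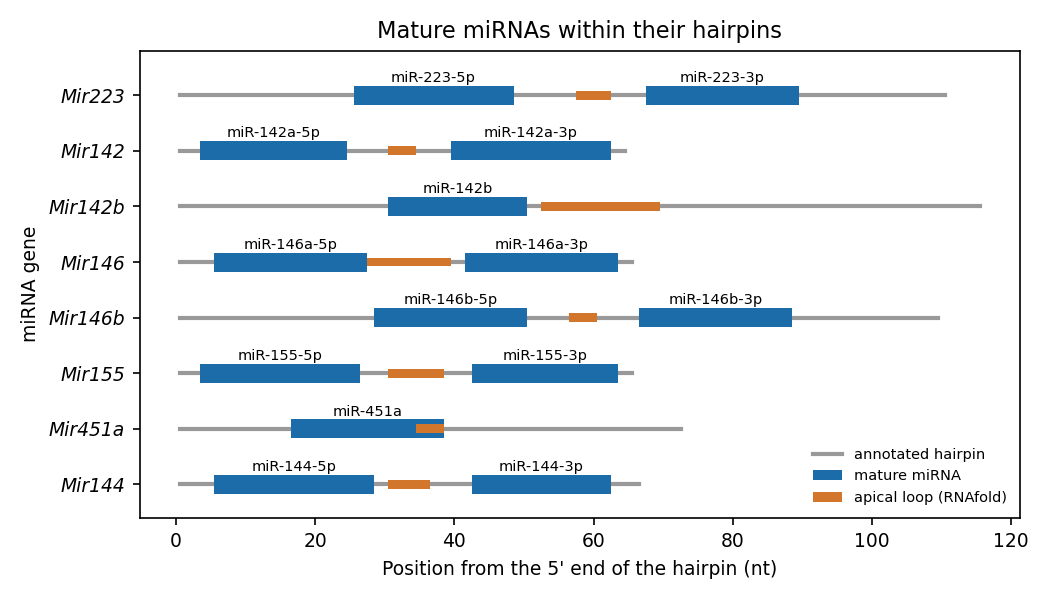
Position of the mature miRNAs (blue) and of the folded apical loop (orange) along each annotated hairpin, in nt from its 5′ end. In Mir451a the mature miRNA covers the loop, and in the other 7 hairpins drawn, Mir142b included, each mature strand lies to 1 side of it.

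Within the whole profile, Mir142 and Mir223 lay above the median detected gene (167 CPM) and the other 5 detected members below it. The endothelial gene Mir126a, a vascular reference, exceeded the sum of all 8 members 31.2-fold (30.4 to 32.1) in pup 1 and 29.5-fold (28.6 to 30.4) in pup 2. By rank of mean CPM, Mir433 (497 ± 4.52 CPM, a log2 difference of 0.05) was directly above Mir142 and Mir503 (475 ± 49.0 CPM) directly below it. Log2 differences are those of the mean log2 CPM over the pups. The same Mir503 was directly above Mir223 (log2 difference 0.01), and Mir1983 (434 ± 50.03 CPM) was directly below. Mir451a stood between Mir19a (21.6 ± 2.64 CPM) and Mir6236 (19.5 ± 0.294 CPM). With 2 libraries this nearness in rank is one of level only.

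Between the pups, the members differed about as much as detected genes in general, with a median absolute log2 ratio of 0.19 over the 7 detected members and 0.17 over all 306. The detected members had a median level of 54.0 CPM, against 167 CPM for all detected genes. Neither this comparison nor the shares below were matched for level. For the comparison, counts of pup 1 and pup 2 were set against effective library sizes (TMM scaling) in a two-sided exact binomial test over all 306 detected genes, which compares these libraries only. Of the 7 detected members 0 passed both thresholds (adjusted p below 0.05, ratio 1.5 or more in either direction), where 2.94% of all genes tested did. Without the minimum ratio 3 of 7 passed, where 51.6% of all genes did, so the members' share is near the background. By that rule 2 of 7 passed with total counts (47.7% of all genes), 2 of 7 with DESeq2 size factors (52% of all genes), 0 of 7 in the edgeR exact test (0.327% of all genes) and 1 of 8 without a filter on low counts (21.7% of all genes). Those 3 genes had an unadjusted p under 0.05, as had 55.2% of all genes. The edgeR exact test took its common dispersion (a coefficient of variation of 11.4%) from these same 2 libraries, treated as replicates. It therefore weighs a gene only against the typical difference between these pups. Few genes could pass by construction, so it cannot tell whether the pups differ.

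Mir155 had a log2 ratio of pup 1 over pup 2 of -0.38 (exact 95% interval -0.67 to -0.10; adjusted p = 0.016, exact binomial test) and Mir146 one of -0.28 (-0.53 to -0.04; adjusted p = 0.040, exact binomial test). Mir223 was on the other side, at 0.17 (0.08 to 0.26; adjusted p = 0.0011, exact binomial test). The remaining intervals included 0: Mir150 at -0.16, Mir451a at 0.19, Mir144 at 0.41, and Mir142 at 0.07, which turned to -0.03 when total counts replaced TMM. The interval of Mir142 lay just above 0 with DESeq2 size factors (0.006 to 0.192) and without a filter on low counts (0.006 to 0.193). Neither setting brought Mir142 under the adjusted p of 0.05. Total counts moved the median of all detected genes from -0.02 to -0.13, and under them Mir223 (0.07) no longer passed an adjusted p under 0.05 (0.27, exact binomial test). Mir146 did not pass with DESeq2 size factors (adjusted p = 0.065, exact binomial test), and without a filter on low counts neither Mir146 (adjusted p = 0.13) nor Mir155 (adjusted p = 0.056, both by the exact binomial test) passed. The ratio of Mir223 to Mir155, free of any scaling, was 10.7 (9.24 to 12.4) in pup 1 and 7.28 (6.31 to 8.42) in pup 2, whereas that of Mir223 to Mir451a was 23.3 (18.9 to 29.1) and 23.7 (18.5 to 30.7). The counting intervals of the pups thus overlapped for Mir223 to Mir451a and not for Mir223 to Mir155. Mir223 and Mir155 lay on opposite sides in the test above, so their ratio restates that result and is no separate check. Mir451a had only 92 and 67 counts, which widens its intervals.

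**Figure D4:**
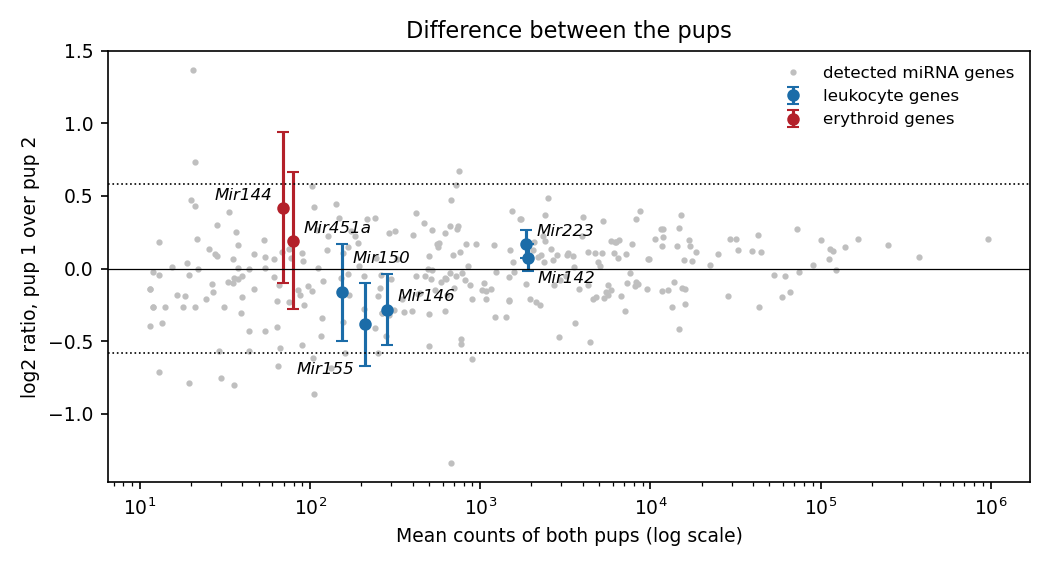
log2 ratio of pup 1 over pup 2 (TMM scaling) against mean counts on a log axis, for the 306 detected genes (grey) and for the 7 detected members, with exact 95% counting intervals. Dotted lines mark a 1.5-fold ratio, and all 7 members lie between them, from -0.38 (Mir155) to 0.41 (Mir144).

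Other miRNA genes linked to blood cells covered a wider range. Of 16 symbols listed, 12 were found and 10 were detected. The 12 genes summed to 0.643% of the counts in pup 1 and 0.757% in pup 2. The 8 members held 0.114% and 0.117%. Mir181c (2473 ± 47.7 CPM) and Mir342 (1812 ± 347 CPM), both known from lymphocytes but also made in other tissues, exceeded every member. Mir181d (1147 ± 337 CPM), and Mir181a-1 (599.6 ± 78.4 CPM), which shares a stretch with Mir181a-2, did so too. Mir221 (366 ± 77.2 CPM) and Mir222 (178 ± 20.5 CPM), which restrain the receptor Kit in erythroid precursors, lay between Mir223 and Mir146. Between these bounds were also Mir181b-2 (199.5 ± 59.9 CPM), which shares a stretch with Mir181b-1, and Mir147 (174 ± 0.801 CPM). Macrophages induce Mir147 on Toll-like receptor signals. How many reads Mir181a-1, Mir181a-2 and Mir181b-2 lost to mapping in several places was not tested. The macrophage gene Mir511, within the mannose receptor gene Mrc1, was low at 62 and 45 counts (13.5 ± 0.611 CPM), beside 17.2 ± 2.62 CPM for Mir144, and Mir181a-2 stood at 35.1 ± 5.82 CPM. Between the pups, 0 of these 10 genes passed both criteria of the exact binomial test (2.94% of all genes did), 7 of 10 had an adjusted p under 0.05 (51.6% of all genes had), and with total counts 2 (Mir181b-2 and Mir181d) passed both, where 5.23% of all genes did.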

How the data were processed

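The authors deposited 1 table of raw counts per library, without normalization, giving per miRNA gene a count regardless of strand and a count for each strand. The assembly mm10 and the annotation M4 are named per the file headers of the accompanying descriptions. The aligner, counting tool and adapter treatment were "not given in the sources used here", as far as labels and headers go. Reads naming no gene (36.5% of reads in pup 1, 36.3% in pup 2, with 26.0% and 25.7% mapping to several places) stayed out of totals. Identifiers were matched without version to GENCODE M21 on GRCm38 (1894 of 1973), which gave symbols, positions and enclosing genes. Counts are those of the strand with the larger total (97.7% and 97.8% of gene counts), and for Mir142b those of the other strand. Because the libraries hold RNA below 30 nt, levels were compared as counts and not divided by hairpin length. How evenly different miRNAs were captured and read was not tested. Ratios between genes are therefore ratios of counts, and their intervals do not cover such differences. The floor is 3 counts. Scaling and tests used edgeR 4.0.16, DESeq2 1.42.0 and scipy 1.17.1, with Benjamini-Hochberg adjustment over all genes tested. Folds came from RNAfold 2.7.2. With 1 library a side, edgeR's quasi-likelihood test could not be fitted. The pups are separate animals. Members and lists were chosen with earlier results of these data known. Named genes are all members, the listed blood cell genes found, and the genes next in rank to Mir142, Mir223 and Mir451a.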

Additional observations from a re-analysis of the deposited data

How the results depend on the processing

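No paired analysis was possible because the libraries form 1 group. The leukocyte share of 0.112% became 0.109% with both strands summed, 0.0637% with Mir142b read on its own strand (which leaves out the Mir142 reads), 0.104% without Mir146 and Mir146b, which share a stretch of 20 nt, 0.0822% with counts divided by hairpin length, and 0.0694% of all reads in the table. The erythroid share of 0.00372% became 0.00231% of all reads, and moved by less than its SD under the other settings. The log2 ratio of leukocyte over erythroid counts, 4.91, became 4.10 with Mir142b on its own strand and 4.36 per hairpin length. With either pup left out, the leukocyte share ranged from 0.110% to 0.113%, the erythroid share from 0.00347% to 0.00396% and the log2 ratio from 4.79 to 5.03. The number of members detected was 7 with a minimum of 5 or of 50 counts and with both strands summed, and 8 with no minimum. The number of members called between the pups stayed at 0 with total counts, with DESeq2 size factors, with the edgeR exact test and without a filter on low counts. Without a minimum ratio it was 3 with TMM scaling and 0 to 2 under those other settings. The edgeR exact test took its dispersion from the same 2 libraries that it compared, so its result is no separate support. Of 14 pup ratios of members under other scalings, 13 kept their direction, and that of Mir142 turned to -0.028 with total counts. Each scaling shifts the log2 ratios of all genes by the same amount, so kept directions are no separate support. Depth limits Mir146b (5 and 3 counts) and the order of Mir451a and Mir144.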

Other observations

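The erythroid gene Mir486, which lies in the ankyrin gene Ank1 of red cells, had 5 counts in pup 1 and 6 in pup 2 (1.43 ± 0.436 CPM) and was not detected, below both Mir451a and Mir144. Its annotated hairpin overlaps that of Mir3107 on the opposite strand, which has no row here, and how many reads it lost to mapping in several places was not tested. Of all rows, 11 had at least 10 reads in each library on the opposite strand and fewer on their own in both pups, Mir142b among them. The Mir142 reads made up 2.06% of all opposite-strand reads in pup 1 and 2.20% in pup 2.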
